A study of Drosophila melanogaster with 4 samples.

Results

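Binding of the tumour suppressor L(3)mbt to the fourth chromosome of Drosophila melanogaster was examined by way of all regions placed on chromosome 4 in the 4 deposited lists. They were 33 L(3)mbt peaks at a false discovery rate of 0.5% (0.996% of that list), called the filtered peaks here, and 42 at a rate of 3% (0.919% of that list, which repeats the 33). They were also 155 of 18529 ChIP peaks in an unfiltered list and 640 of 46603 input peaks. DNA bound by L(3)mbt was recovered by chromatin immunoprecipitation and sequenced (ChIP-seq) from larvae of the third instar raised at 25 °C. The ChIP group held 2 samples, from w1118, a white-eyed laboratory stock, and from Canton S, a wild-type stock, both precipitated with the same guinea pig antibody against a part of L(3)mbt. The input group held 2 samples, 1 of each strain, that had not been precipitated. Every sample was a mixture of larval brain with imaginal discs (haltere, wing and the third leg), so signal cannot be assigned to either tissue. No sample lacked L(3)mbt. No deposited list named a strain, and each is taken here to stand for a group, though any pooling of strains is not given. No value per strain, no spread between strains and no depth per sample can therefore be given. Intervals below are exact 95% intervals over peaks. They cover counting error only.

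L(3)mbt is a chromatin protein with MBT repeats, folds that can hold methylated lysines of histone tails. It is found in repressive complexes, and larvae that lack it form tumours of the brain in which germline genes are active. The title of the study names insulator elements, DNA at which chromatin domains and enhancer contacts are bounded, as places where it acts. The fourth is the smallest chromosome of the fly. It is rich in repeats, does not normally recombine and is coated by the heterochromatin protein HP1a and by POF, a protein that marks this chromosome, yet its genes are active. Among them are ci, which encodes the transcription factor of the Hedgehog pathway, the Pax6 genes ey and toy of eye development, pan, which encodes the TCF factor of the Wingless pathway, and zfh2, a zinc-finger homeodomain gene. Which genes lie at the peaks was not analysed here, because no annotation or sequence of the release used by the lists was at hand. Positions are those of the lists, whose chromosome names are those of Drosophila release 5, and run from the centromere side to the tip.

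The filtered peaks, each 400 bp wide, began at base 64251 and ended at base 1234697. Most of their scores, the authors' signal per peak, were low, and a few were high. Peaks of 50 or more are called strong here and those under 20 weak, by limits set for description. Of the 33 peaks, 7 scored under 10, 14 scored from 10 to under 20, 5 scored from 20 to under 50 and 7 scored 50 or more (21.2%, interval 8.98 to 38.9%). In the whole list 18.5% of the peaks reached 50. The scores on either side of the limit of 50 were 45.7 and 62.3. The weakest listed peak scored 7.88, and the highest of the 9 regions listed at the 3% rate alone scored 7.42. The 7 strong peaks held 67.4% of the summed score of the chromosome. In the 4 autosomal arms 2L, 2R, 3L and 3R, the 503 peaks of 50 or more held 60.2%.

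**Figure D1:**
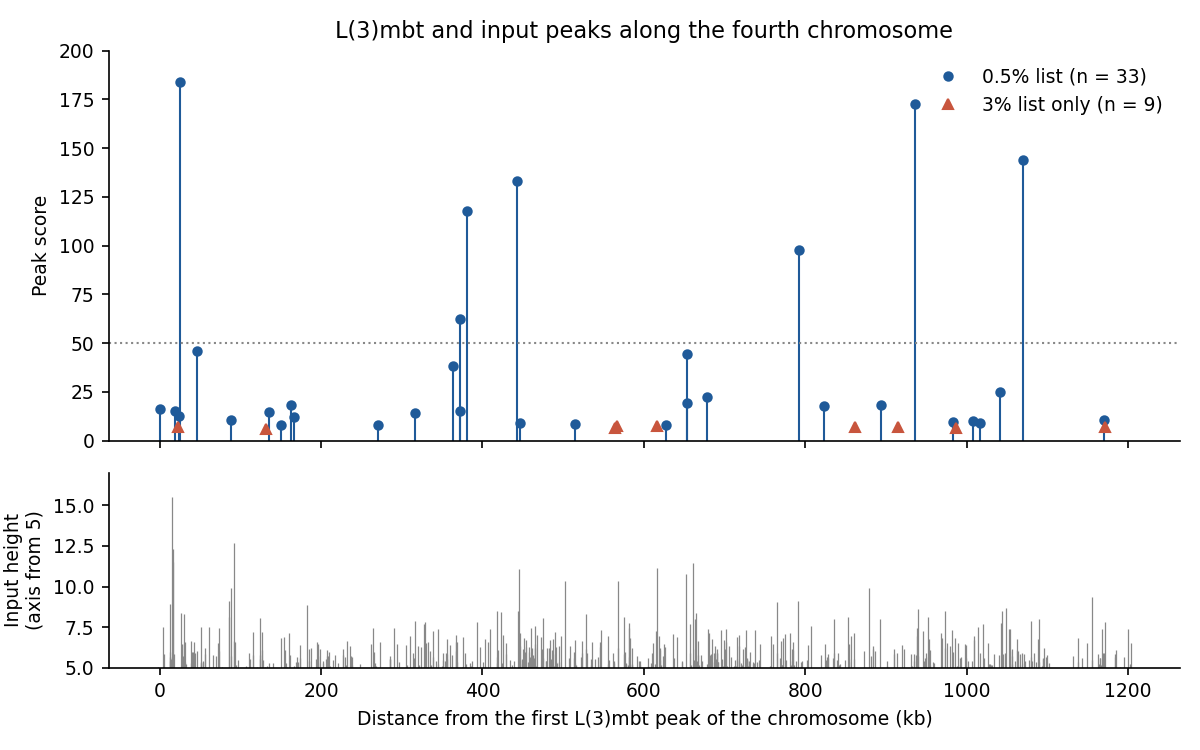
Upper panel, score of each L(3)mbt peak of the fourth chromosome against its distance in kb from the first such peak, with circles for the 33 peaks of the 0.5% list, triangles for the 9 peaks of the 3% list alone and a dotted line at a score of 50. Lower panel, height of each of the 640 input peaks on an axis that starts at the list's minimum of 5. Strong peaks are found near both ends and in the middle, and the highest input peak, at 15.53, lies close to the first L(3)mbt peaks.

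The end on the centromere side carried the strongest peak of the chromosome. No list held any peak before base 61944. The first filtered peak, from 64251, scored 16.1, and the next, from 83799, scored 15.3. A weak peak from 87741, with a score of 12.4, lay 1453 bp from centre to centre from the strongest, which ran from 89194 to 89593 and scored 184.1. That score exceeded 97.8% of the scores on the autosomal arms. The peak from 110313, with a score of 45.7, ranked next below the strong peaks. A region from 86756, listed at the 3% rate alone with a score of 6.94, lay 985 bp from the peak at 87741. This end thus held weak peaks and the strongest side by side.

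The next stretch, from 152564 to 380701, held only weak peaks. The peak from 152564 scored 10.4. That from 199897 scored 14.9, and that from 214301 scored 8.22. A pair from 226465 and from 230636 scored 18.5 and 12.3, with centres 4171 bp apart. After a gap of 104.2 kb, the peak from 335273 scored 7.88, the lowest of the 33, and that from 380302 scored 14.2. A region from 195917, listed at the 3% rate alone, scored 5.76, the lowest of the 9 such regions. The highest score of this stretch, 18.5, exceeded 56.5% of those on the autosomal arms.

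The densest run of strong binding lay from 427424 to 511134. The peak from 427424 scored 38.4. A weak peak from 436047, at 15.2, stood 954 bp from centre to centre from a strong peak from 437001, at 62.3. The next strong peaks ran from 445239, with a score of 118.0, and from 507197, with a score of 133.1. The latter had a weak neighbour from 510735, which scored 8.84. This run held 3 of the 7 strong peaks, and the shortest distance between strong peaks on the chromosome, 8.24 kb, was between its first and second.

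Past this run, a long stretch held no strong peak. The peak from 578402 scored 8.46 and that from 691499 scored 7.98, with 112.7 kb between them. Within that gap 3 regions were listed at the 3% rate alone, from 628107, 631032 and 681116, and they scored 6.53, 7.31 and 7.42. A close pair from 717311 and 718052, with centres 741 bp apart, scored 19.1 and 44.5. It was the shortest distance between filtered peaks on the chromosome. The peak from 742422 scored 22.2, and the longest gap, of 113.2 kb, followed it. From the strong peak at 507197 to the next strong peak at 856061 the distance was 348.9 kb.

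The part towards the tip held the other 3 strong peaks, each standing apart. The peak from 856061 to 856460 scored 98.0, and its nearest filtered neighbour, from 887541 at 17.6, was 31480 bp away. The peak from 957707 scored 18.3. The second strongest peak of the chromosome, from 1000451 to 1000850 with a score of 172.6, had its nearest filtered neighbour 42744 bp away. After it came weak peaks from 1047675, 1071904 and 1081361, which scored 9.68, 10.025 and 8.90. The peak from 1105322 scored 25.2. That from 1133483 to 1133882 scored 143.8 and was followed by a gap of 100.4 kb. The last peak, from 1234298, scored 10.7 and was the most isolated, 100815 bp from its nearest filtered neighbour. Regions listed at the 3% rate alone stood from 925301, 978924, 1051041 and 1235381, with scores of 6.98, 6.82, 6.41 and 6.87, the last of them 1083 bp from the last filtered peak.

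The unfiltered list ranked the peaks in a similar order of strength. Every filtered peak (33 of 33, as 100% of the whole list) overlapped an unfiltered ChIP call, and 30 of them overlapped a single call. The peaks from 578402, 691499 and 1047675, all weak like most of the 33, overlapped 2 calls each. They were 9.09% of the peaks (1.92 to 24.3%). On the arms 15.7% (14.3 to 17.1%) overlapped more than 1 call. The 7 strong peaks had calls of heights from 123.1 to 408.3, and the lowest height, 11.6, was in the peak from 578402. Score and height had a Pearson r of 0.996 and a Spearman rho of 0.97 over the 33 peaks, a description of values made from the same reads. The 9 regions of the 3% list alone had heights from 8.70 to 20.7. Of these, 4 lay within 5000 bp of a filtered peak, and the other 5 lay from 10383 to 52630 bp away.

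No difference in the strength of binding between the fourth chromosome and the arms was detectable. The median score was 16.1 (interval 12.3 to 25.2, n = 33) against 15.7 (15.2 to 16.5, n = 2655) on the 4 autosomal arms, where the arm medians ran from 14.5 on 2R to 17.2 on 3R. The quartiles were 10.4 and 44.5 on the fourth chromosome and 10.2 and 36.7 on the arms. Scores of 100 or more were reached by 5 of 33 peaks (15.2%, 5.11 to 31.9%) against 8.10% of arm peaks (7.09 to 9.20%), and the first interval includes the second share. The highest score of the chromosome, 184.1, was below the highest of each autosomal arm, which ran from 318.2 to 358.7. The highest unfiltered call in each region had a height 2.26 times the region's score at the median (2.15 to 2.41). On the arms it was 2.23 times (2.22 to 2.25), which the first interval includes. How score and height were scaled is not given, so this ratio is not read as the shape of a peak.

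**Figure D2:**
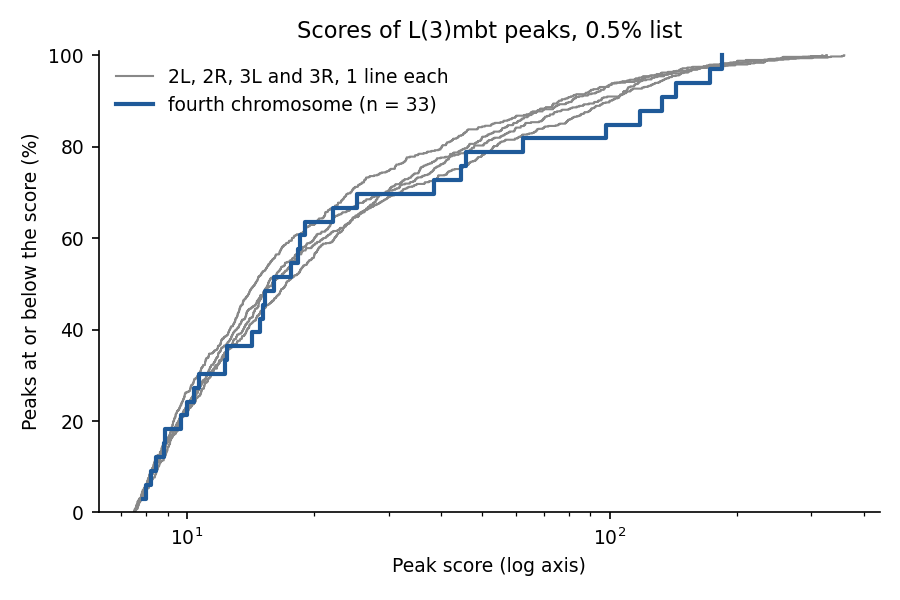
Share of L(3)mbt peaks of the 0.5% list at or below each score, on a log axis, for the fourth chromosome (thick line, n = 33) and for 2L, 2R, 3L and 3R (thin lines). The thick line lies below the thin ones at a score of 100, which 15.2% of the peaks on the fourth chromosome reached against 6.46 to 9.92% on the arms.

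In number, filtered peaks did not differ detectably from those on the arms. Both unfiltered lists passed a test that takes calls as independent, but their counts lay within the range of arm stretches of equal length. The fourth chromosome held 25.9 filtered peaks per Mb (17.8 to 36.3) over a span of 1.276 Mb, and the arms held 25.6 on 2L, 30.1 on 2R, 25.9 on 3L and 28.5 on 3R. The ratio to the 4 arms together was 0.94 (0.65 to 1.32, two-sided exact binomial test, p adjusted over the 4 lists = 0.80), and densities from 0.65 to 1.32 times lie within the interval. At the 3% rate it was 0.87 times (0.62 to 1.18, exact binomial test, adjusted p = 0.57). Of the regions of the 3% list, 33 of 42 (78.6%, 63.2 to 89.7%) were also listed at 0.5%, against 72.5% in the whole list. The unfiltered ChIP list was sparser on the fourth chromosome, at 121.4 per Mb against 153.4 on the arms. Its ratio was 0.79 (0.67 to 0.93, exact binomial test, adjusted p = 0.0062). The input list was denser, at 501.4 per Mb against 434.3, with a ratio of 1.15 (1.07 to 1.25, exact binomial test, adjusted p = 0.0017). Neither difference was called when calls with centres less than 1000 bp apart were counted once. The ratios were then 0.94 for ChIP and 0.99 for input. A whole run of such calls counted once, so the rule removes more calls where calls are denser. Of the distances between input peaks, 49.9% were under 1000 bp on the fourth chromosome and 41.4% on the arms. The rule therefore cannot decide whether the input excess holds. Peaks gather, so these p-values are too small by an unknown amount. Of 74 arm stretches as long as the fourth chromosome, 12 held fewer unfiltered ChIP calls and 8 held more input peaks.

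Set against genes, the fourth chromosome carried more filtered peaks than the arms. The RefSeq gene table of Drosophila release 6 listed 80 protein-coding genes on chromosome 4 and 11645 on the 4 arms. Per 100 such genes there were 41.2 filtered peaks (28.4 to 57.9) on the fourth chromosome and 22.8 (21.9 to 23.7) on the arms, whose values ran from 22.1 on 2L to 23.4 on 3R. The ratio was 1.81 (1.24 to 2.55), and for the 3% list it was 1.67 (1.20 to 2.26). Gene density was 62.7 per Mb of span on the fourth chromosome and 120.6 on the arms. The table gave numbers of genes alone, since its release differs from that of the lists. Genes therefore come from 1 release and peaks and spans from another, and sequence that the releases place differently was not accounted for.

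The 1 Mb at the centromere end of each arm, as listed, differed from arm to arm in how it compared with the fourth chromosome. How far each stretch lies from the centromere, and whether the stretches are alike in kind, was not examined. On 2L, 2R and 3L this 1 Mb held 5, 6 and 2 filtered peaks, with highest scores of 27.1, 17.4 and 12.6. On 3R it held 30 filtered peaks and a score of 354.7. The fourth chromosome had 5.97 times the density of filtered peaks of the first 3 stretches together (3.06 to 12.4) and 0.86 times that of the 3R stretch (0.51 to 1.46). Against all 4 stretches it had 2.41 times the density (1.48 to 3.88, exact binomial test, adjusted p = 0.00085). Unfiltered ChIP calls were at 3.83 times the density of the 3 stretches and 0.72 times that of the 3R stretch, where they numbered 169 per Mb. Input peaks were at 3.23 times (2.86 to 3.65) and 0.92 times (0.82 to 1.04), with 544 per Mb on the 3R stretch. Input calls and filtered peaks were thus both denser than on the 3 stretches, and both intervals against the 3R stretch include 1. The part of input calls in the difference was not tested. The split of the arms was made after their counts were seen. The ratios to the 3 stretches and to 3R depend on that choice, so they are given without p-values.

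Counts of filtered peaks varied little between windows of 100 kb laid along the fourth chromosome from base 1. Each of the 13 windows of that size held from 1 to 4 of them. Windows 1, 3, 5 and 11 from the centromere side held 4, and windows 7, 10 and 13 held 1. Over the 12 whole windows the variance of the count was 0.50 times its mean. When the arms were divided into 74 consecutive stretches as long as the fourth chromosome, with 12 windows each, this value ran from 0.47 to 4.27 with a median of 1.56, and 73 of the 74 stretches lay above the fourth chromosome. Windows without a filtered peak numbered 0 on the fourth chromosome, and 61 of the 74 stretches had at least 1. That 0 depends on where the windows start, since 4 gaps between filtered peaks were 100 kb or longer. Windows with other starts were not examined. With windows of 50 kb the value was 1.31, within the middle of the stretches, 38 of which lay above it. The low variance was thus a feature of these windows of 100 kb, and of windows of 200 kb, where 70 of 74 stretches lay above. No test was made, since the windows were compared after their counts were known.

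**Figure D3:**
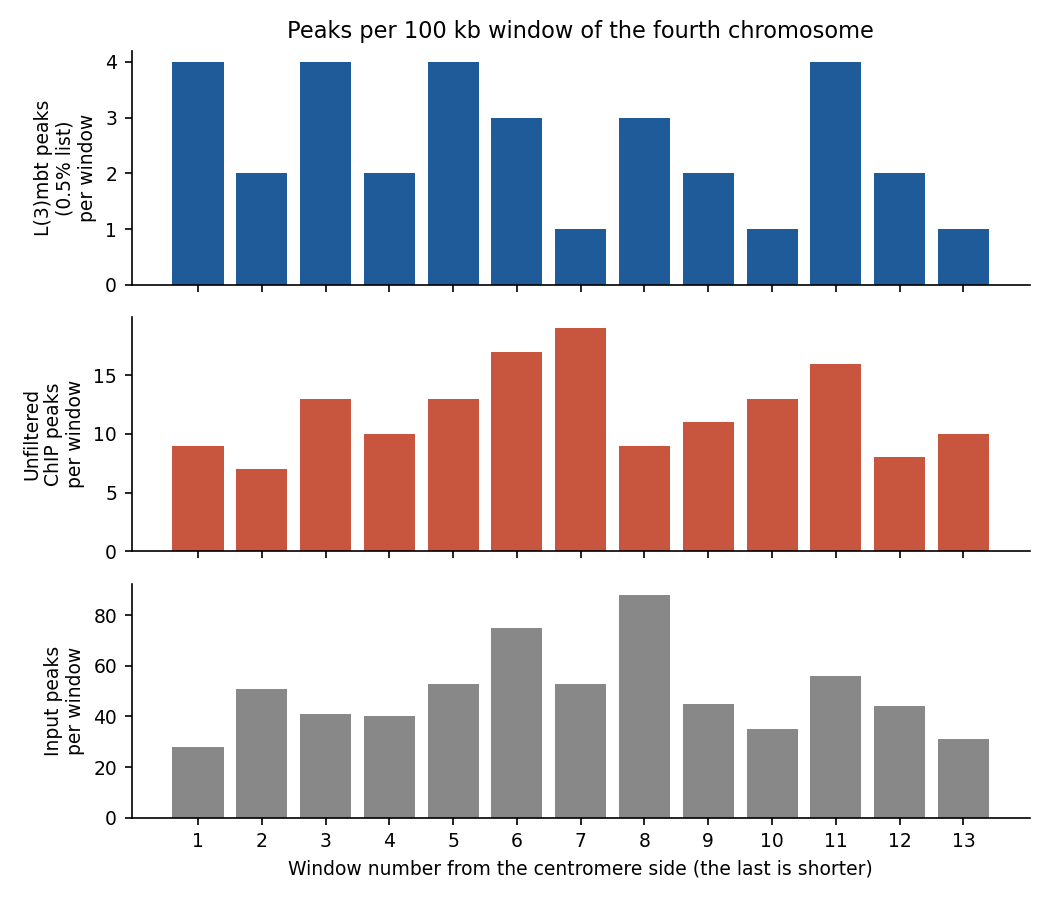
Number of filtered L(3)mbt peaks, unfiltered ChIP peaks and input peaks in each of the 13 windows of 100 kb along the fourth chromosome, from the centromere side, the last window being shorter. Filtered peaks number 1 to 4 in every window, and input peaks number 28 to 88.

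The other lists behaved differently from each other in the same windows. Unfiltered ChIP calls numbered from 7 to 19 per window, with a variance 1.18 times the mean, below the values of all 74 arm stretches, which ran from 1.85 to 13.4. Input peaks numbered from 28 to 88 per whole window, with a variance 5.50 times the mean, above 70 of the 74 stretches. The lowest count, 28, was in window 1, which includes the bases before 61944 without a peak in any list. In total counts, 33 filtered peaks stood within the range of the stretches, 4 to 53 with a median of 36. The 155 unfiltered ChIP calls were exceeded in 61 of 74 stretches, and the 640 input peaks in 8. Window 7, from 600001 to 700000, showed how the lists part. It held the most unfiltered ChIP calls, 19, and 3 regions listed at the 3% rate alone, but only 1 filtered peak.

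**Figure D4:**
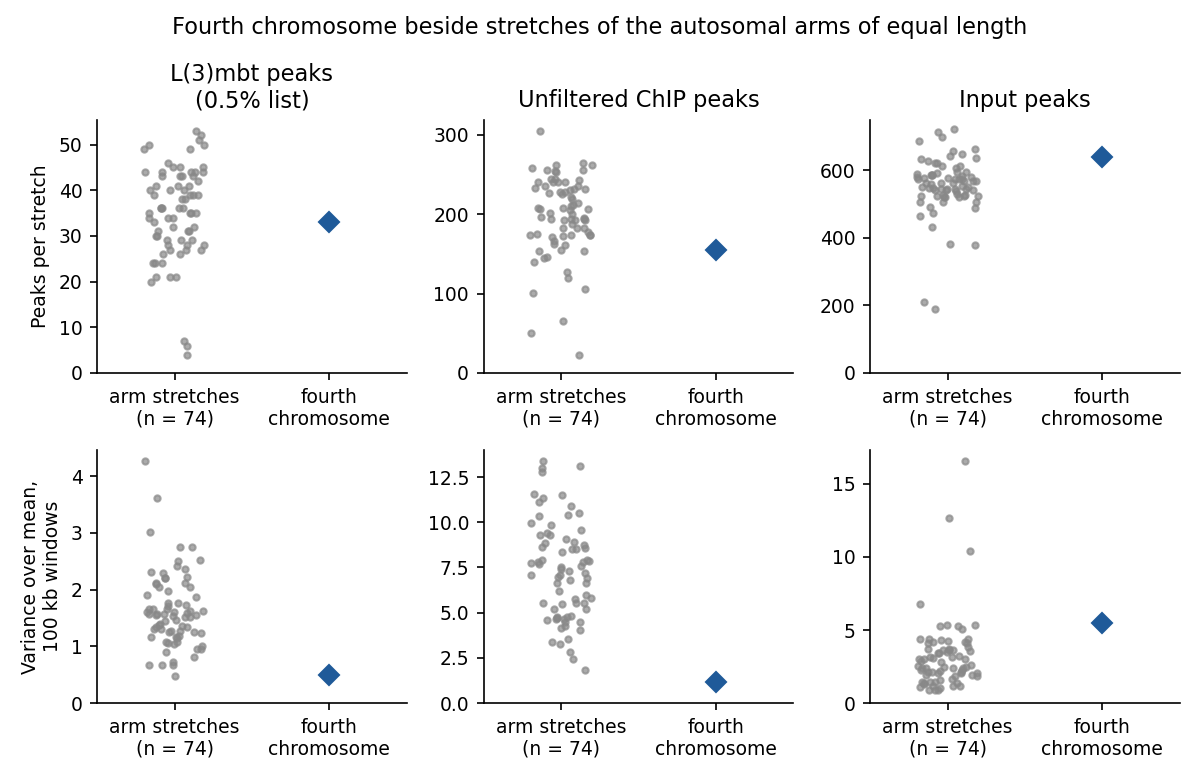
Upper row, number of peaks in each of 74 consecutive stretches of 2L, 2R, 3L and 3R as long as the fourth chromosome (grey points, spread sideways for display) and on the fourth chromosome (diamond). Lower row, variance over mean of counts in 12 windows of 100 kb for the same stretches. The fourth chromosome lies at 0.50 for filtered peaks, at 1.18 for unfiltered ChIP peaks and at 5.50 for input peaks.

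From peak to peak, distances did not differ detectably from those of the arms, although their median was above that of each arm. The median distance between neighbouring centres was 25.1 kb, or 25091 bp (interval 12164 to 47122 bp, n = 32), against 18033 bp on the autosomal arms (16858 to 19235 bp), where medians ran from 15941 bp on 2R to 20862.5 bp on 3L. The interval of the fourth chromosome includes each of these. Neighbours less than 5000 bp apart made up 6 of 32 distances (18.8%, 7.21 to 36.4%) against 20.4% on the arms. They formed 5 groups, 1 of 3 peaks and 4 of 2, and held 11 of the 33 peaks (33.3%, 18.0 to 51.8%, against 36.5% on the arms). In the groups from 83799, from 436047 and from 507197, a strong peak stood with weak ones of 15.3 or less. In the groups from 226465 and from 717311, no peak reached 50.

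The gaps differed in what the other lists held there. Distances of 100 kb or more without a filtered peak numbered 4 and took up 33.7% of the chromosome's span, against 39.9% on the arms. As a share of gaps they were 12.5% (3.51 to 29.0%) against 8.79% (7.74 to 9.93%). The longest gap on the arms was 780.1 kb, and 186 gaps on the arms were as long as the 113.2 kb gap from 742822 to 856060. That gap held 91 input peaks, or 803.6 per Mb, 7 unfiltered ChIP calls and no region of the 3% list. The gap from 578802 to 691498 held 67 input peaks, 20 unfiltered ChIP calls of heights up to 18.8 and the 3 regions of the 3% list named above. The gap from 231036 to 335272 held 44 input peaks and 7 ChIP calls, and that from 1133883 to 1234297 held 44 and 8. The fifth in length, from 887941 to 957706, held 30 input peaks and 8 ChIP calls. Each of these 5 gaps thus held unfiltered ChIP calls. The first 64.2 kb of the span differed, with 0 ChIP calls and 1 input peak.

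By height, the density of unfiltered ChIP calls relative to the arms was lower for calls under 10 than for those of 10 or more. Over all heights, the shortage was not called with neighbours under 1000 bp counted once (0.94 times). Calls from 5 to under 6 were at 0.68 times the arm density (0.49 to 0.92), and those under 10 together were at 0.73 times (0.59 to 0.89). Both classes were added after values were seen, so no p-value is given for them. Calls of 10 or more were at 0.93 times (0.71 to 1.21, exact binomial test, adjusted p = 0.80), and the difference between both classes was not tested. Calls from 20 to under 50 were at 1.15 times (0.70 to 1.78), and those of 50 or more were at 0.96 times (0.51 to 1.65). Of the 155 calls, 33 reached a height of 20 (21.3%, 15.1 to 28.6%), against 15.8% of the whole list. The highest was 408.3, in the strongest filtered peak. Calls in filtered peaks numbered 36 (23.2%, 16.8 to 30.7%, against 20.8% in the whole list), and a further 12 lay in regions of the 3% list alone. Together they were 48 of 155 (31.0%, 23.8 to 38.9%), against 28.9% of the whole list. The rest divided into 29 within 2000 bp of a filtered peak, with a median height of 6.60, and 78 farther away, with a median height of 6.33.

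A few calls outside the filtered regions were high. The 2 highest flanked the filtered peak from 856061. The call from 856483 to 856752 had a height of 223.2 and that from 855578 to 855847 a height of 164.3, while the call in the filtered peak itself had a height of 210.2. The listed 400 bp therefore held the middle of a site of 3 high calls, from 855578 to 856752. Beside this peak, 3 others of the 33 had a higher call within 2000 bp, and in each case that call belonged to another filtered peak. On the arms, 10.9% of filtered peaks (9.73 to 12.1%) had a higher call within that distance, against 12.1% (3.40 to 28.2%) here. The next highest calls outside the filtered regions were at 1134019 with a height of 26.0, beside the strong peak from 1133483, at 1202481 with a height of 16.2 and at 328538 with a height of 14.5. The last lay 6800 bp from a filtered peak and that at 1202481 lay 31882 bp from one.

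Around filtered peaks, unfiltered ChIP calls were sparser than on the arms at distances beyond 1000 bp. Within 250 bp of a filtered centre there were 36 calls, or 2182 per Mb of flank (1528 to 3021), against 2123 on the arms. From 1000 to 2000 bp the density was 197.0 per Mb (104.9 to 336.8) against 364.8 (348.7 to 381.4). From 10 to 20 kb it was 77.3 per Mb (57.5 to 101.6) against 214.3 (210.4 to 218.3). Relative to the chromosome's own mean density the value at 10 to 20 kb was 0.64 times on the fourth chromosome and 1.40 times on the arms. A call near 2 filtered peaks was counted for both, so these intervals are too narrow. Input peaks were denser than on the arms. From 10 to 20 kb they were at 578.8 per Mb (522.2 to 639.8) against 476.4 (470.5 to 482.3), and relative to each chromosome's own mean density at 1.15 against 1.10 times. Between 250 and 500 bp they were at 484.8 per Mb (209.3 to 955.3) against 238.0 (212.5 to 265.8).

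**Figure D5:**
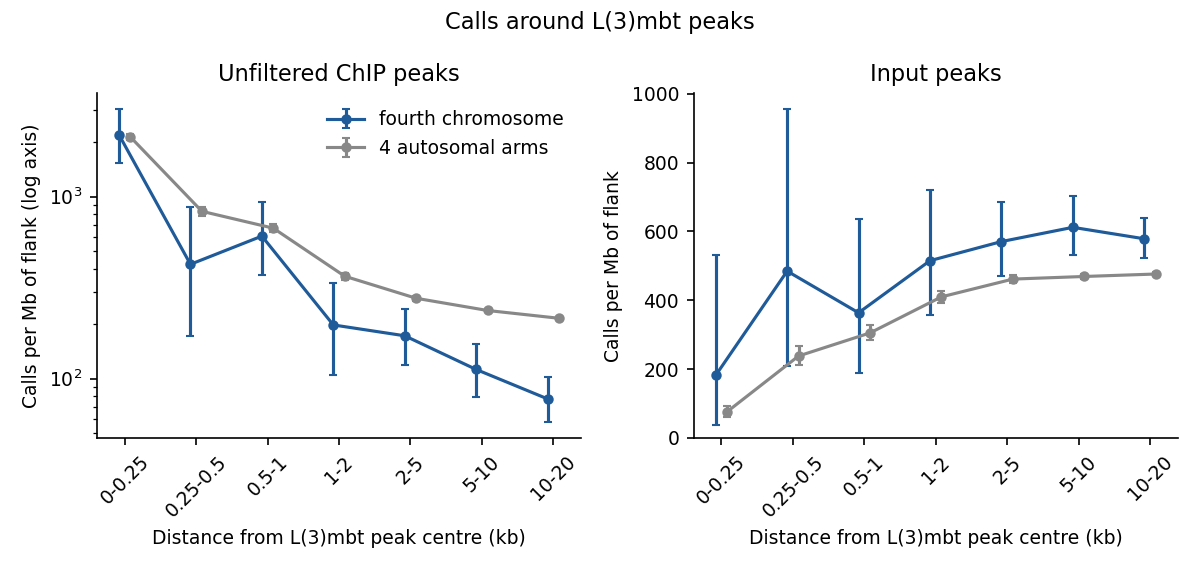
Unfiltered ChIP calls (left, log axis) and input peaks (right) per Mb of flank in 7 ranges of distance from the centres of filtered L(3)mbt peaks, with exact Poisson 95% intervals, for the fourth chromosome and the 4 autosomal arms. At 10 to 20 kb the fourth chromosome lies at 77.3 for ChIP calls, below the 214.3 of the arms, and at 578.8 for input peaks, above their 476.4.

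Input peaks covered 13.5% of the span of the fourth chromosome and 11.7% of that of the arms. Their heights had a median of 5.68 (5.60 to 5.79, n = 640) against 5.64 on the arms (5.64 to 5.66). Peaks of 8 or more were at 1.64 times the arm density (1.15 to 2.27, exact binomial test, adjusted p = 0.011). They were 37 of the 640 (5.78%, 4.10 to 7.88%), against 4.02% of the whole list. Peaks of 10 or more were 10 of 640 (1.56%, 0.75 to 2.85%), against 0.775% of the whole list. Of the 5 highest, 3 lay together close to the centromere side. The highest, from 79644 to 79913, had a height of 15.5, and 17 input peaks of the arms were as high. Those from 80614 and from 81144 had heights of 12.3 and 11.5, and the group lay 2720 to 4220 bp from the filtered peak from 83799. The other 2 were from 156646, with a height of 12.7, and from 725012, with a height of 11.4. None of the 5 had an unfiltered ChIP call within 2000 bp. The share of all input peaks without such a call was not computed, so this cannot be called particular to the highest.

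Input peaks were unevenly placed along the chromosome. The second of 3 equal parts, from 425450 to 850898, held 280 of them, or 658.1 per Mb, while the first held 177 (416.0 per Mb) and the last 183 (430.1 per Mb). The first part includes the bases before 61944, where no list held a peak, which lowers its density. The filtered peaks were divided as 12, 11 and 10 over the same parts, and the strong ones as 1, 3 and 3. The fullest window, from 700001 to 800000, held 88 input peaks and the next, from 500001 to 600000, held 75. The median distance between neighbouring input peaks was 1000 bp (899 to 1148) against 1321 bp on the arms (1301 to 1340). The longest stretch without an input peak within the listed range, 29.6 kb from 1165982 to 1195630, also held no filtered peak and held 2 unfiltered ChIP calls. It lay inside the gap after the strong peak from 1133483. Over 25 windows of 50 kb, the counts of filtered and of input peaks had a Pearson r of 0.13 and a Spearman rho of 0.26, given as a description.

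Few filtered peaks overlapped an input peak. Of the 33, 4 shared 1 bp or more with an input peak (12.1%, 3.40 to 28.2%), against 5.70% of the whole list and 6.33% (5.43 to 7.32%) of the peaks on the autosomal arms. The 4 were neighbours in order along the chromosome, from 152564, 199897, 214301 and 226465. They shared 185, 89, 52 and 94 bp with input peaks of heights from 5.30 to 6.83. All 4 were weak, at 8.22 to 18.5, and 0 of the 7 strong peaks overlapped input, the nearest input centre to any of these being 420 bp away. Most of the 33 peaks were weak, and the overlap of strong and of weak peaks on the arms was not computed. These small counts therefore show no difference by strength. The median distance from a filtered centre to the nearest input centre was 978 bp (603 to 1448) against 1398 bp on the arms (1342 to 1462). Each of the 33 peaks had at least 1 input peak within 5000 bp, and at most 10. Among unfiltered ChIP calls, 21 of 155 overlapped an input peak (13.5%, 8.59 to 19.96%), against 7.66% of the whole list and 8.62% on the autosomal arms. How the caller treated ChIP signal when it made the input list is unknown here, so overlaps may be set by how the lists were made.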

How the data were processed

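The labels describe 4 samples, and each of the 4 deposited peak lists (3314, 4572, 18529 and 46603 peaks) is taken to stand for a group. Per the submitters' processing notes reads were handled with Bowtie. The lists' names call the caller pypeak. Its settings, the build and any pooling of strains are not given in the sources that were used. The deposited signal per peak was used as the authors gave it, as score (400 bp lists) or height (270 bp lists, never below 5). Chromosomes were compared within a list, while the correlation and the ratio of height and score set values of different lists side by side. The false discovery rates are read from how the authors named the lists, and the list named control is taken as input.

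Starts were shifted to count from 1. Spans run from base 1 to the last peak of any list. Densities have exact Poisson intervals, shares Clopper-Pearson intervals and medians order-statistic intervals. Ratios to 2L, 2R, 3L and 3R have exact conditional intervals and two-sided exact binomial tests, adjusted by Benjamini-Hochberg over 4 lists, called at 0.05. An alternative's p was adjusted with the other 3 lists' p as they were. Overlap needs 1 bp. The planned search for motifs was not run without a genome of the lists' release. Functions were tested on simulated data. The chromosome, the tests and the regions named (all filtered peaks, the 5 highest input and unlisted ChIP calls, the 5 longest gaps, extreme windows) were chosen with earlier results of these data known. Bands of height, dispersion in arm stretches, neighbouring calls and the 4 overlapping peaks were added after seeing values. Software was scipy 1.17.1, numpy 2.4.6, pandas 2.3.3, Python 3.11.15 and, for plots, matplotlib 3.10.9.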

Additional observations from a re-analysis of the deposited data

How the results depend on the processing

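Of 41 alternatives over 10 results, 27 kept direction, call or size. Filtered peaks stayed between 0.86 and 0.99 times the reference density, uncalled, in most alternatives. The exceptions were the centromere-end 1 Mb of the 4 arms (2.41 times) and that of 2L, 2R and 3L alone (5.97 times). The split of 3R from the other 3 arms was made after their counts were seen. Unfiltered ChIP calls, at 0.79 times, rose above 1 against both references (1.84 and 3.83 times) and at a height of at least 20 (1.07 times). They were no longer called with neighbours under 1000 bp counted once (0.94 times), at a height of at least 10 (0.93 times) or over 2000 bp from a filtered peak (0.79 times, exact binomial test, adjusted p = 0.060). The input excess became 0.99 times with neighbours counted once, a rule that removes more calls where calls are denser. It became 0.92 times against the centromere-end 1 Mb of 3R, and the cause was not tested. By construction, input spacing grew to 3294 bp at a height of at least 6, and overlap fell to 3.03% when 50% of the input peak had to be covered. When centres within 500 bp were counted instead, the share of filtered peaks was 27.3% (13.3 to 45.5%). The variance over mean of filtered peaks was 1.31 in windows of 50 kb and 0.42 in windows of 200 kb. The longest gap was the same in the 3% list. No paired analysis was possible because the lists carry no value per sample, and no replicate could be left out. The small number of peaks limits every statement, and the depth is unknown.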
